A study of Saccharomyces cerevisiae with 16 samples.

Results

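The transcriptional state of budding yeast after 1 h in hydroxyurea was read from 4 of the 16 readings of a 2-colour array series, that is, from 2 of its 8 slides. They are all readings whose labels give 200 mM hydroxyurea for 1 hour. Cells of strain CDY59, labelled wild type, had been grown in YPD, a rich glucose medium, to an optical density of 0.5, and hydroxyurea was then present for 1 h. The comparison RNA on the same slide came from the untreated CDY59 culture in YPD at an optical density of 0.5. One slide held the treated RNA in channel 1 and the other held it in channel 2. Each slide had 2 readings, titled faible and fort (French for weak and strong), and their mean was taken as the slide's value. Whether the slides held separate cultures or extracts is not stated. The p-values and standard errors rest only on the spread between slides of all times, pooled after a shared channel effect was fitted. That spread may be technical, and it is not the difference between the 2 slides of 1 h. The labels describe no untreated culture held for a further 1 h, so effects of hydroxyurea and of time in culture cannot be told apart.

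Hydroxyurea quenches the radical of the small subunit of ribonucleotide reductase, the enzyme that makes deoxyribonucleotides. Replication forks then slow in S phase and the checkpoint kinases Mec1, Rad53 and Dun1 become active, which in yeast raises transcription of ribonucleotide reductase genes. Histone genes are transcribed mainly in S phase, and genes for daughter cell separation late in mitosis and early in G1, so arrested cultures are known to differ in both from cycling ones. General stress genes under the transcription factors Msn2 and Msn4 and ribosomal protein genes are known to move in opposite directions in many yeast stresses.

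All values below are log ratios of hydroxyurea over untreated, taken as base 2, with 0 at the median gene of each reading. The labels do not name the numerator channel. One sign for the whole series was set so that RNR2 and RNR4 were above 0 on the 2, 4 and 6 h slides, so every direction given here is likely and not established. The 1 h slides did not enter that choice. A ratio gives no level, and with bulk RNA fewer cells of a kind and less RNA per cell cannot be told apart. The strain's labelled state could not be checked against marker levels for the same reason.

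The 1 h slides differed from each other by more than their own readings did. Across the 3127 genes measured, the readings of a slide correlated at 0.924 on the slide with treated RNA in channel 1 and at 0.848 on the other, while the slides correlated at -0.081. The median absolute difference was 0.18 and 0.17 between readings of a slide and 0.405 between the slides. Part of that difference moved with the channel that held the treated RNA. The difference between the 1 h slides correlated at 0.698 with the same difference averaged over 2, 4 and 6 h. The slides of a time correlated at -0.034 at 2 h, 0.504 at 4 h and 0.579 at 6 h, so this average joins unlike times. Once that average was taken off, the slides correlated at 0.251 and their median absolute difference was 0.286. These are correlations across genes, which share slides and are not independent, and they carry no test. The test below therefore had a term for the channel, held the same at every time. Each gene's value on both slides is given beside the test.

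**Figure D1:**
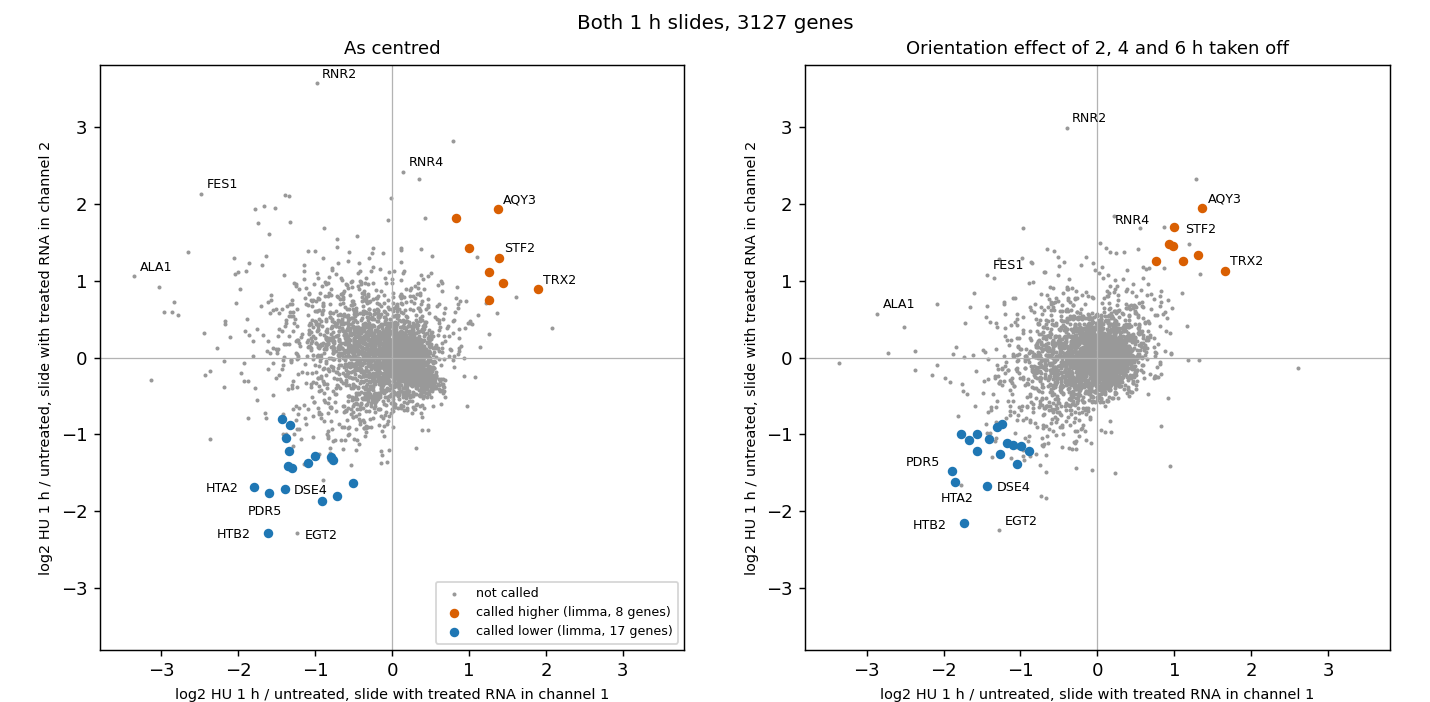
Each point is 1 of 3127 genes, with the log2 ratio of hydroxyurea 1 h over untreated on the slide with treated RNA in channel 1 on the x axis and on the slide with it in channel 2 on the y axis. The left panel shows the centred values and the right panel the same after the channel effect averaged over the 2, 4 and 6 h slides was taken off. The 8 genes called higher lie in the upper right and the 17 called lower in the lower left, while RNR2, ALA1 and FES1 lie in the upper left, below 0 on one slide and above 0 on the other.

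After 1 h in hydroxyurea, 25 genes passed limma's test at an adjusted p of 0.05, which is 0.799% of the 3127 tested. There were 8 higher (0.256%), led by the aquaglyceroporin gene AQY3, the thioredoxin gene TRX2 and the stress gene STF2. There were 17 lower (0.544%), led by the histone genes HTB2 and HTA2, the drug pump gene PDR5 and the cell separation gene DSE4. All 25 lay at or beyond 0.5 in the same direction on both slides. A larger set of 35 genes higher (1.12%) and 108 lower (3.45%) lay at or beyond 0.5 on both slides without regard to the test, and 4 and 16 of them lay at or beyond 1. On values as deposited that split turned round, with 101 higher and 57 lower. At an unadjusted p of 0.05, 116 genes were higher (3.71%) and 263 lower (8.41%).

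The number of calls depended on which slides entered the fit and on the scaling. It was 86 without either 2 h slide, 4 without either 6 h slide and 0 without either 1 h slide, with no channel term, or with the 1 h slides alone. It was 86 on values as deposited (46 higher and 40 lower), 168 after quantile normalization (53 and 115), 110 with readings in slide blocks, 5 on the faible readings and 47 on the fort readings. Before centring the median gene was at 0.21, and all changes are relative to it.

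**Figure D2:**
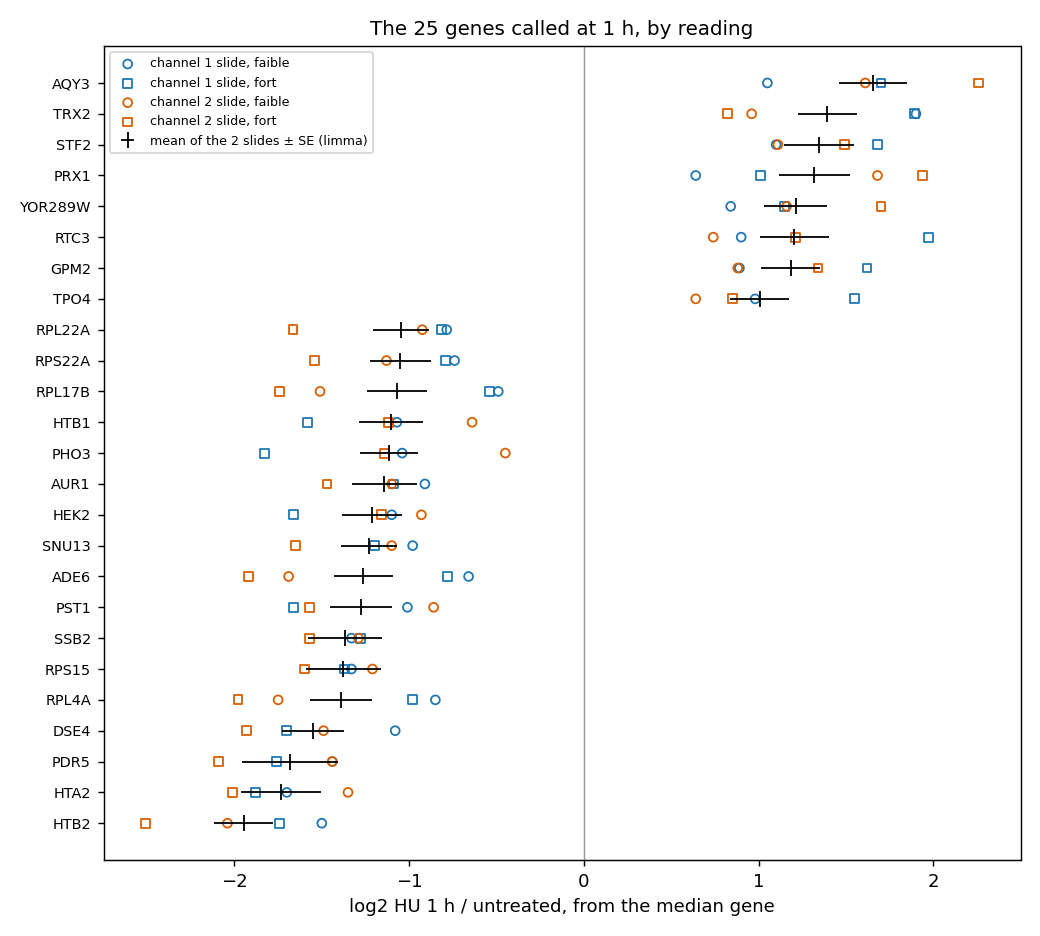
The 25 genes called at 1 h, with the log2 ratio of hydroxyurea 1 h over untreated on the x axis. Circles are faible and squares fort readings, blue for the slide with treated RNA in channel 1 and orange for the slide with it in channel 2, and the black mark is the mean of the 2 slides with its limma standard error. The 4 readings of every gene lie on one side of 0, and those of HTB2 run from -2.51 to -1.50.

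The histone genes HTB2 and HTA2 had the lowest values of all called genes. HTB2 (YBL002W), which encodes histone H2B, read -1.50 and -1.74 on the slide with treated RNA in channel 1 and -2.04 and -2.51 on the other. All 4 readings were low, and the fitted value was -1.95 ± 0.17 (SE, n = 2 slides, adjusted p = 0.00963), a ratio of 0.259 if the base is 2. HTA2 (YBL003C), which encodes histone H2A and lies next to HTB2 in the genome, read -1.70, -1.88, -1.35 and -2.01 in the same order of readings. The slides differed little for HTA2, and the fitted value was -1.74 ± 0.23 (adjusted p = 0.0319), a ratio of 0.300. HTB1 (YDR224C), the second H2B gene, read -1.07, -1.58, -0.64 and -1.12 and had a smaller fitted value of -1.10 ± 0.18 (adjusted p = 0.0454). HTZ1, which encodes the variant histone H2A.Z, read -0.01, 0.03, -0.75 and -1.06. It was thus at the median gene on the first slide and low on the other, at -0.45 in the fit (adjusted p = 0.385). These 4 were the measured genes of 10 listed, with 3 called lower, against 0.544% of all genes. The slide medians of the list were -1.47 and -1.29, against -0.01 and 0.025 over all genes. HTA and HTB paralogs are close in sequence, and hybridization between them was not tested.

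The plot of the times sets these values beside the later ones. At 1, 2, 4 and 6 h, HTB2 had -1.95, -1.09, -1.84 and -1.77. HTA2 had -1.74, -1.26, -1.09 and -1.04 at the same times. The difference between 1 h and the mean of the later times was -0.38 ± 0.19 for HTB2 (adjusted p = 0.847) and -0.60 ± 0.27 for HTA2 (adjusted p = 0.803), neither of which passed. All times may share the untreated RNA, so the order of values between times is a description.

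Of 16 measured genes of the transition from mitosis to G1, 2 were called lower, against 0.544% of all genes. On both slides 8 lay at or below -0.5, against 3.45% of all genes, and 14 lay below 0, against 21.2%. In place of these 8 there were 5 on the faible readings and 6 on values as deposited, where 65 and 57 of all 3127 genes did so. The list's slide medians were -1.06 and -0.64. DSE4 (YNR067C), a glucanase secreted by daughter cells that degrades the septum wall from the daughter side, read -1.08 and -1.70 on the slide with treated RNA in channel 1 and -1.49 and -1.93 on the other. Its fitted value was -1.55 ± 0.18 (adjusted p = 0.0302). PST1 (YDR055W), a GPI-anchored cell wall protein, was called at -1.27 ± 0.18 (adjusted p = 0.034), with -1.33 and -1.22 on the slides. The members EGT2 and PIR1 had lower values still but missed the threshold. EGT2, a GPI-anchored protein needed for cell separation, stood at -1.76 ± 0.31 (adjusted p = 0.0552), with -1.24 and -2.29 on the slides. PIR1, a cell wall mannoprotein, stood at -1.71 ± 0.33 (adjusted p = 0.0685), with -2.37 and -1.06.

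Among mitotic (G2/M) transcripts, 1 of 7 measured genes was called lower, against 0.544% of all genes. On both slides 2 lay at or below -0.5, against 3.45%, and 4 lay below 0, against 21.2%. In place of these 2 there were 0 on the faible readings and 1 on values as deposited. Single genes ran from -1.11 to -0.03 in the fit. The called gene was PHO3 (YBR092C), a constitutive acid phosphatase that the list places with the Mcm1 and Fkh2 cluster, at -1.11 ± 0.17 (adjusted p = 0.0357). It is a close paralog of PHO5, which stood at -2.03 and 0.71 on the slides and was not called (adjusted p = 0.486), so signal shared between these spots was not told apart. ALK1, a haspin-like kinase, stood at -1.35 and -0.41 (adjusted p = 0.143), and the B-type cyclin gene CLB1 at -1.22 and 0.02 (adjusted p = 0.436). G1/S transcripts showed no call among 20 genes, with slide medians of -0.01 and 0.13. On both slides 6 of the 20 lay above 0, against 22.6% of all genes, and 4 below 0, against 21.2%. RFA2, a subunit of the single-stranded DNA binding protein RPA, stood at 0.52 ± 0.17 (adjusted p = 0.26) and PRI2, a primase subunit, at 0.54 ± 0.15 (adjusted p = 0.187). CLN1 lay the other way, at -0.14 and -0.41 on the slides (adjusted p = 0.589).

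The 1 h slides disagreed on the genes of ribonucleotide reductase, and no member of the list was called. RNR2 (YJL026W), a small subunit, read -1.03 and -0.93 on the slide with treated RNA in channel 1 and 3.26 and 3.87 on the other. The slides thus lay on opposite sides of 0, the readings of a slide close together, and the fitted value of 1.29 ± 0.67 did not pass (adjusted p = 0.527). RNR4 (YGR180C), the partner small subunit, read 0.00 and 0.28 on the first slide and 2.72 and 2.11 on the other, and its fitted value of 1.28 ± 0.50 did not pass either (adjusted p = 0.347). The slide with treated RNA in channel 2 was high for both genes, and the slide with it in channel 1 was not. With the channel effect of the later times taken off, RNR4 stood at 0.86 and 1.69 on the slides, and RNR2 at -0.40 and 2.99. At 2, 4 and 6 h RNR2 stood at 3.23, 3.12 and 3.10 and RNR4 at 3.55, 2.75 and 2.65, and these later values set the sign of the table. The difference of 1 h from the later times was -1.86 ± 0.78 for RNR2 (adjusted p = 0.803) and -1.70 ± 0.57 for RNR4 (adjusted p = 0.715). Of the 10 genes listed, the other 2 measured were WTM1 and WTM2, nuclear anchors of the small subunit, at -0.30 and -0.19, neither called.

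Checkpoint and repair genes showed no call among 19 measured, and none lay at or beyond 0.5 on both slides. On values as deposited, after quantile normalization and on the fort readings, 2 lay at or above 0.5. Their slide medians were 0.21 and 0.20, and 8 of 19 lay above 0 on both slides, against 22.6% of all genes. DUN1 (YDL101C), the checkpoint kinase that acts on ribonucleotide reductase, read 0.04, 0.22, 0.53 and 1.06, in the order faible and fort of the channel 1 slide and then of the other. Its value of 0.46 ± 0.27 did not pass (adjusted p = 0.601), and at 2, 4 and 6 h it stood at 1.41, 0.58 and 1.23. RAD5, a ubiquitin ligase of postreplication repair, had the smallest p of the list with 0.39 and 0.55 on the slides (adjusted p = 0.257). MAG1, a DNA glycosylase, stood at 0.39 and 0.73 (adjusted p = 0.493), and RAD6, a ubiquitin conjugase of postreplication repair, at -0.005 and 1.02 (adjusted p = 0.332).

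Of the 25 lists, that of general stress genes had the largest share of members at or above 0.5 on both slides. Of 19 measured, 2 were called higher, against 0.256% of all genes. On both slides 8 lay at or above 0.5, against 1.12% of all genes, and 15 lay above 0, against 22.6%. In place of these 8 there were 4 on the faible readings and 11 on values as deposited, where 27 and 101 of all 3127 genes did so. The list's median was 0.76, with 0.41 and 0.94 on the slides. STF2 (YGR008C), which stabilizes the ATPase inhibitor of mitochondria and protects dried cells, read 1.10 and 1.68 on the slide with treated RNA in channel 1 and 1.11 and 1.49 on the other. The slides were alike, and it rose by 1.34 ± 0.20 (adjusted p = 0.0357), a 2.54-fold ratio. RTC3 (YHR087W), a small protein linked to RNA metabolism and to stress tolerance, read 0.90, 1.97, 0.74 and 1.21 and rose by 1.21 ± 0.20 (adjusted p = 0.0423). Its faible and fort readings differed by over 1 on the first slide. HSP26, a small heat shock chaperone, stood at 0.79, 1.41, 1.09 and 1.53 over the readings. Its fitted value of 1.21 ± 0.29 equalled that of RTC3 with a larger error, and it did not pass (adjusted p = 0.131). SOL4, a phosphogluconolactonase of the pentose phosphate pathway, stood at 1.36 and 0.57 on the slides (adjusted p = 0.0802). The other 4 members at or above 0.5 on both slides, named here after their values were seen, were HSP12, GRE1, PGM2 and YGP1, at 0.63 to 0.80 in the fit.

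Of 25 measured redox genes, under Yap1 or with related functions, 2 were called higher, against 0.256% of all genes. On both slides 3 lay at or above 0.5, against 1.12% of all genes, while the list's median was 0.20. TRX2 (YGR209C), the cytoplasmic thioredoxin that also donates electrons to ribonucleotide reductase, read 1.90 and 1.89 on the slide with treated RNA in channel 1 and 0.96 and 0.82 on the other. It was high on both slides, and rose by 1.39 ± 0.17 (adjusted p = 0.0302), a 2.63-fold ratio. PRX1 (YBL064C), the mitochondrial peroxiredoxin, read 0.64 and 1.01 on the first slide and 1.68 and 1.94 on the other, and rose by 1.32 ± 0.20 (adjusted p = 0.0368). With the channel effect of the later times taken off, TRX2 stood at 1.66 and 1.13 and PRX1 at 1.31 and 1.33. AHP1, a thiol peroxidase, stood at 1.61 and 0.79 with a fitted value of 1.20 ± 0.22 that missed the threshold (adjusted p = 0.06). Its readings on the first slide, 2.18 and 1.04, differed from each other by over 1. SOD1, the copper-zinc superoxide dismutase, stood at 1.01 and 0.47 (adjusted p = 0.119).

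Among the 4 times, TRX2 and STF2 had their highest values at 1 h. At 1, 2, 4 and 6 h, TRX2 had 1.39, 0.93, 0.85 and 0.22, and STF2 had 1.34, 0.73, 0.25 and 0.38. PRX1 and HSP26 showed another order, PRX1 with 1.32, 2.10, 1.19 and 1.84 and HSP26 with 1.21, 1.91, 2.54 and 2.92. The differences of 1 h from the mean of the later times were 0.73 ± 0.20 for TRX2, 0.89 ± 0.23 for STF2 and -1.25 ± 0.34 for HSP26, each with an adjusted p of 0.656. None passed, so the orders are descriptions of these slides.

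Genes of iron uptake under Aft1 and Aft2 had no call among 20 measured. Of these, 2 lay at or above 0.5 on both slides, against 1.12% of all genes, and 14 lay above 0 on both, against 22.6%. The list's slide medians were 0.28 and 0.20. The 2 were ENB1, the enterobactin transporter, with 0.66, 1.03, 0.63 and 1.21 over the readings and 0.88 ± 0.21 in the fit (adjusted p = 0.128), and FIT3, a cell wall mannoprotein that retains siderophore iron, with 0.71 ± 0.23 (adjusted p = 0.271). FIT3 stood at 1.88, 1.99 and 2.34 at the later times, a difference of -1.37 ± 0.27 that did not pass (adjusted p = 0.605). Enzymes that need iron and the genes of iron-sulfur assembly showed no call among 27, with slide medians of -0.14 and 0.075. Their list median changed sign between centred values (-0.09) and values as deposited (0.10).

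AQY3 (YFL054C), of the aquaglyceroporin family of water and glycerol channels, was the gene with the largest called rise. It read 1.05 and 1.70 on the slide with treated RNA in channel 1 and 1.61 and 2.26 on the other, all well above 0. The fitted value was 1.66 ± 0.20 (adjusted p = 0.0302), a 3.15-fold ratio, and it stood at 2.06, 1.73 and 2.45 at 2, 4 and 6 h. GPM2 (YDL021W), a homolog of phosphoglycerate mutase without known activity in glycolysis, read 0.89, 1.62, 0.88 and 1.34 and rose by 1.18 ± 0.17 (adjusted p = 0.034). YOR289W, which has no standard name, read 0.84, 1.15, 1.16 and 1.70 and rose by 1.21 ± 0.18 (adjusted p = 0.0357). At 2, 4 and 6 h GPM2 had 1.51, 0.48 and 0.37 and YOR289W had 0.81, 0.28 and 0.41, without a called difference from 1 h.

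Of 17 measured genes of the multidrug network, transporters and regulators among them, 1 was called higher, against 0.256% of all genes, and 1 lower, against 0.544%. PDR5 (YOR153W), the main drug efflux pump of the plasma membrane, read -1.44 and -1.76 on the slide with treated RNA in channel 1 and -1.44 and -2.09 on the other. The slides were alike, and it fell to a fitted value of -1.68 ± 0.27 (adjusted p = 0.0423), a ratio of 0.312. TPO4 (YOR273C), a polyamine exporter, read 0.98, 1.55, 0.64 and 0.85 and rose by 1.00 ± 0.17 (adjusted p = 0.0454). SNQ2, another pump of the ATP-binding cassette family, stood at -0.80 and -0.64 (adjusted p = 0.466). The list's median was -0.09 on centred values and 0.11 as deposited, so no direction is given for it.

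Cytosolic ribosomal protein genes formed the largest group of lower genes. Of 49 measured, 5 were called lower, against 0.544% of all genes. On both slides 30 lay at or below -0.5, against 3.45% of all genes, and 40 lay below 0, against 21.2%. Their slide medians were -0.89 and -0.77, and single genes ran from -1.39 to 0.16 in the fit. RPS15 (YOL040C), of the small subunit, read -1.33, -1.37, -1.21 and -1.60 and stood at -1.38 ± 0.21 (adjusted p = 0.0368). RPL4A (YBR031W), of the large subunit, read -0.85 and -0.98 on the first slide and -1.75 and -1.98 on the other, and stood at -1.39 ± 0.18 (adjusted p = 0.0315). The slides thus differed in size for RPL4A, and its paralog RPL4B stood at -2.97 and 0.59 and was not called (adjusted p = 0.334). RPL22A, RPL17B and RPS22A were called at -1.05, -1.07 and -1.05, with adjusted p from 0.0368 to 0.0454. On values as deposited, 18 in place of 30 genes of the list lay at or below -0.5 on both slides. Paralog pairs of ribosomal protein genes are nearly identical, and signal shared between them was not told apart.

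Ribosome biogenesis genes, which make and process ribosomal RNA, had no call among 55 measured, though 24 had an unadjusted p under 0.05 in the lower direction, against 8.41% of all genes. On both slides 11 lay at or below -0.5, against 3.45% of all genes, and 36 lay below 0, against 21.2%. The slide medians were -0.69 and -0.31. MAK21, a factor of large subunit assembly, stood at -1.03 on each slide (adjusted p = 0.062). GAR1, of the box H/ACA particle that modifies ribosomal RNA, stood at -0.66 and -1.07 (adjusted p = 0.0802), and RPA190, the largest subunit of RNA polymerase I, at -0.85 and -0.99 (adjusted p = 0.103). SNU13 (YEL026W), a protein shared by box C/D particles and the spliceosome and not on the list, was called at -1.23 ± 0.16 (adjusted p = 0.0315), with -1.09 and -1.38 on the slides. It stood at 0.003, -0.68 and -0.90 at 2, 4 and 6 h, and the difference of 1 h from these did not pass (adjusted p = 0.656). On values as deposited, 4 in place of 11 genes of the list lay at or below -0.5 on both slides.

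**Figure D3:**
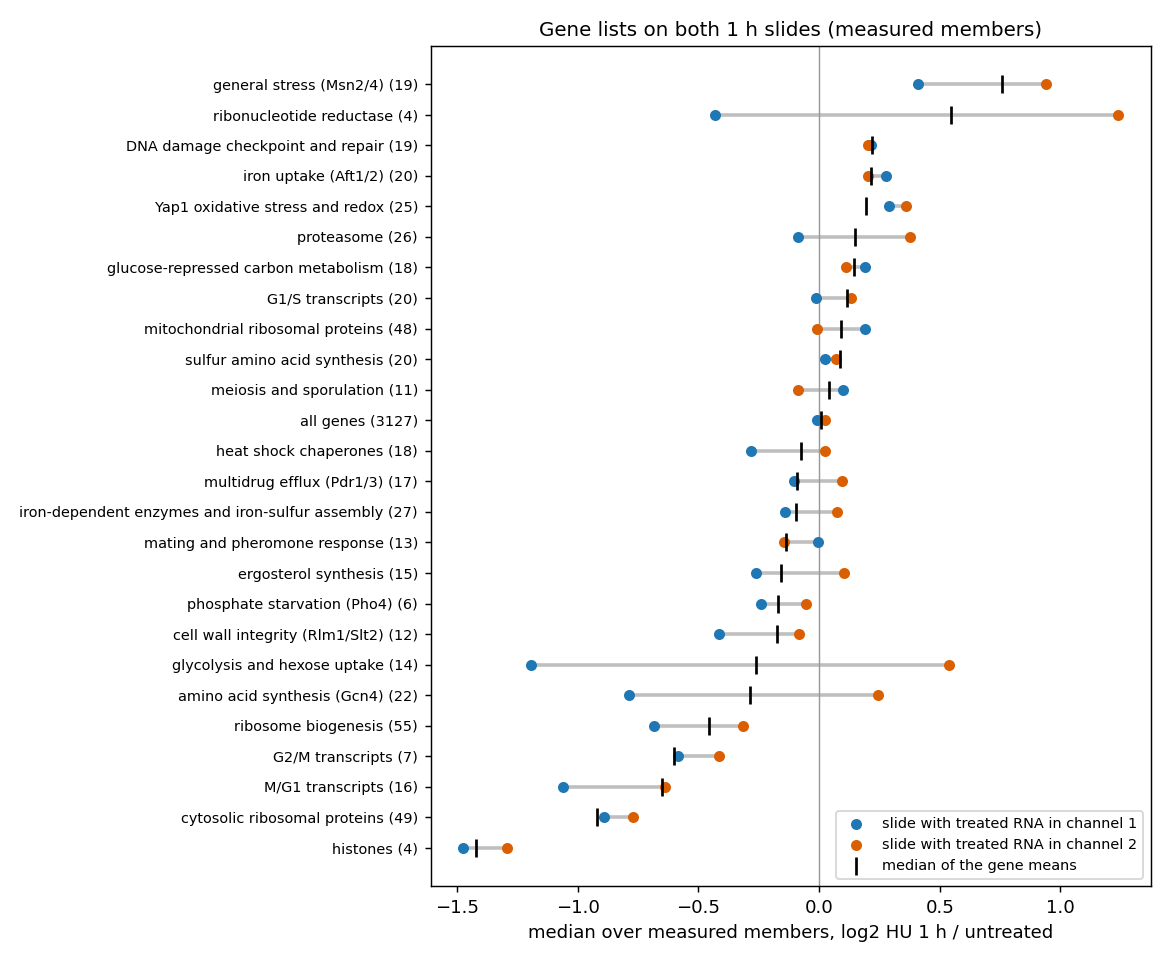
Median log2 ratio of hydroxyurea 1 h over untreated over the measured members of each gene list (number in brackets), on the x axis. Blue points are the slide with treated RNA in channel 1, orange points the slide with it in channel 2, and black marks the median of the members' means over the slides. Histones, cytosolic ribosomal proteins and M/G1 transcripts lie below 0 and general stress genes above 0 on both slides, while the points of glycolysis (-1.19 and 0.54) and of ribonucleotide reductase (-0.43 and 1.24) lie on opposite sides.

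The remaining called genes have varied functions. SSB2 (YNL209W), a ribosome-bound chaperone of the Hsp70 family, read -1.33, -1.28, -1.29 and -1.57, and was called at -1.37 ± 0.21 (adjusted p = 0.0368). It was the only call among 18 chaperone genes of the heat shock list, and its near-identical paralog SSB1 stood at -1.76 and -0.55 and was not called (adjusted p = 0.147). ADE6 (YGR061C), of purine synthesis, stood at -0.72 and -1.80 on the slides and -1.26 ± 0.17 in the fit (adjusted p = 0.0328). HEK2 (YBL032W), an RNA binding protein that takes part in localizing ASH1 mRNA and in telomere maintenance, stood at -1.38 and -1.04 (adjusted p = 0.034). AUR1 (YKL004W), the inositol phosphorylceramide synthase of sphingolipid synthesis, stood at -1.0 and -1.29 (adjusted p = 0.0423). At 2 h ADE6, HEK2 and SSB2 stood at 0.01, 0.11 and -0.04, and at 4 h at -1.60, -1.09 and -1.49. For none of these did the difference of 1 h from the later times pass.

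On several metabolic lists the slides lay on opposite sides of the median gene. The 14 genes of glycolysis and hexose uptake had a median of -1.19 on the slide with treated RNA in channel 1 and 0.54 on the other, with no call. CDC19, pyruvate kinase, stood at -2.04 and 1.09, and ENO1, an enolase, at -0.86 and 0.12. Of the 14, 3 lay below 0 on both slides, against 21.2% of all genes, and 0 above 0 on both, against 22.6%. Among the 3 was PFK1, with the smallest p of the list, at -0.13 and -1.265 (adjusted p = 0.108). The 22 genes of amino acid synthesis had -0.79 and 0.25, with no call. ILV3, of branched-chain amino acid synthesis, stood at -2.65 and 1.37. On both slides 2 of the 22 lay at or below -0.5, against 3.45% of all genes, and 0 at or above 0.5, against 1.12%. The 2 were BAT1, at -0.955 and -0.735 (adjusted p = 0.283), and LYS2, at -0.565 and -0.505 (adjusted p = 0.427). The 26 proteasome genes had -0.088 and 0.375 on the slides and a median of 0.15 in the fit, with no call. Other lists had medians near the median gene, all with no call. These were 0.09 for the 20 genes of sulfur amino acids, 0.14 for the 18 of glucose-repressed metabolism and 0.09 for the 48 mitochondrial ribosomal proteins. MET14, the kinase of sulfate assimilation, had the smallest p among the genes of these lists, with 0.34 and 0.97 on the slides (adjusted p = 0.133). MET17, which forms homocysteine, had 1.03 and 0.43 (adjusted p = 0.227). SAH1, also of the sulfur list, lay the other way, at -1.96 and -0.205 (adjusted p = 0.205). Among 12 genes of cell wall integrity PST1 was the 1 call, and 15 of ergosterol synthesis and 6 of phosphate starvation had none; the medians of these lists, -0.17, -0.16 and -0.17, were above 0 on values as deposited. The lists of mating and of meiosis, which stand for other states of yeast cells, had no call among 13 and 11 genes and medians of -0.14 (0.06 as deposited) and 0.04.

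Over all genes the disagreement ran in one direction. While 155 genes lay at or below -0.5 on the slide with treated RNA in channel 1 and at or above 0.5 on the other, 5 lay the opposite way. With the channel effect of the later times taken off, these numbers were 52 and 3, and 47 genes were higher (1.5%) and 124 lower (3.97%) on both slides. On values as deposited that split too turned round, with 105 higher and 55 lower. The genes on which the slides differed most were RNR2, FES1, ALA1 and ILV3. FES1, an exchange factor for Hsp70, read -2.17 and -2.80 on the first slide and 1.96 and 2.30 on the other. ALA1, the alanyl-tRNA synthetase, read -3.16, -3.54, 1.49 and 0.63. In each case the readings of a slide agreed in sign, and the means of -0.18 and -1.15 were not called. In the other direction ITC1, a subunit of a chromatin remodelling complex, stood at 2.08 and 0.39.

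The 1 h response was set against the mean of 2, 4 and 6 h in the same fit, to ask which genes had another response early. No gene passed (0.0% of 3127 by limma), while 188 had an unadjusted p under 0.05. The lowest adjusted p was 0.54, for PSA1 (YDL055C), which makes GDP-mannose for the cell wall. PSA1 stood at -1.09 and 0.32 on the 1 h slides, -0.38 in the fit, and at -0.71, -1.86 and -2.39 at 2, 4 and 6 h, a difference of 1.27 ± 0.21. The median standard error of this comparison was 0.208, against 0.18 for 1 h alone. With quantile normalization or with readings in slide blocks PSA1 was the 1 gene that passed, and on values as deposited 16 genes passed, 4 higher and 12 lower at 1 h. Leaving out the 2 h slide whose treated RNA was in channel 2 gave 1 gene, RPS7A.

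**Figure D4:**
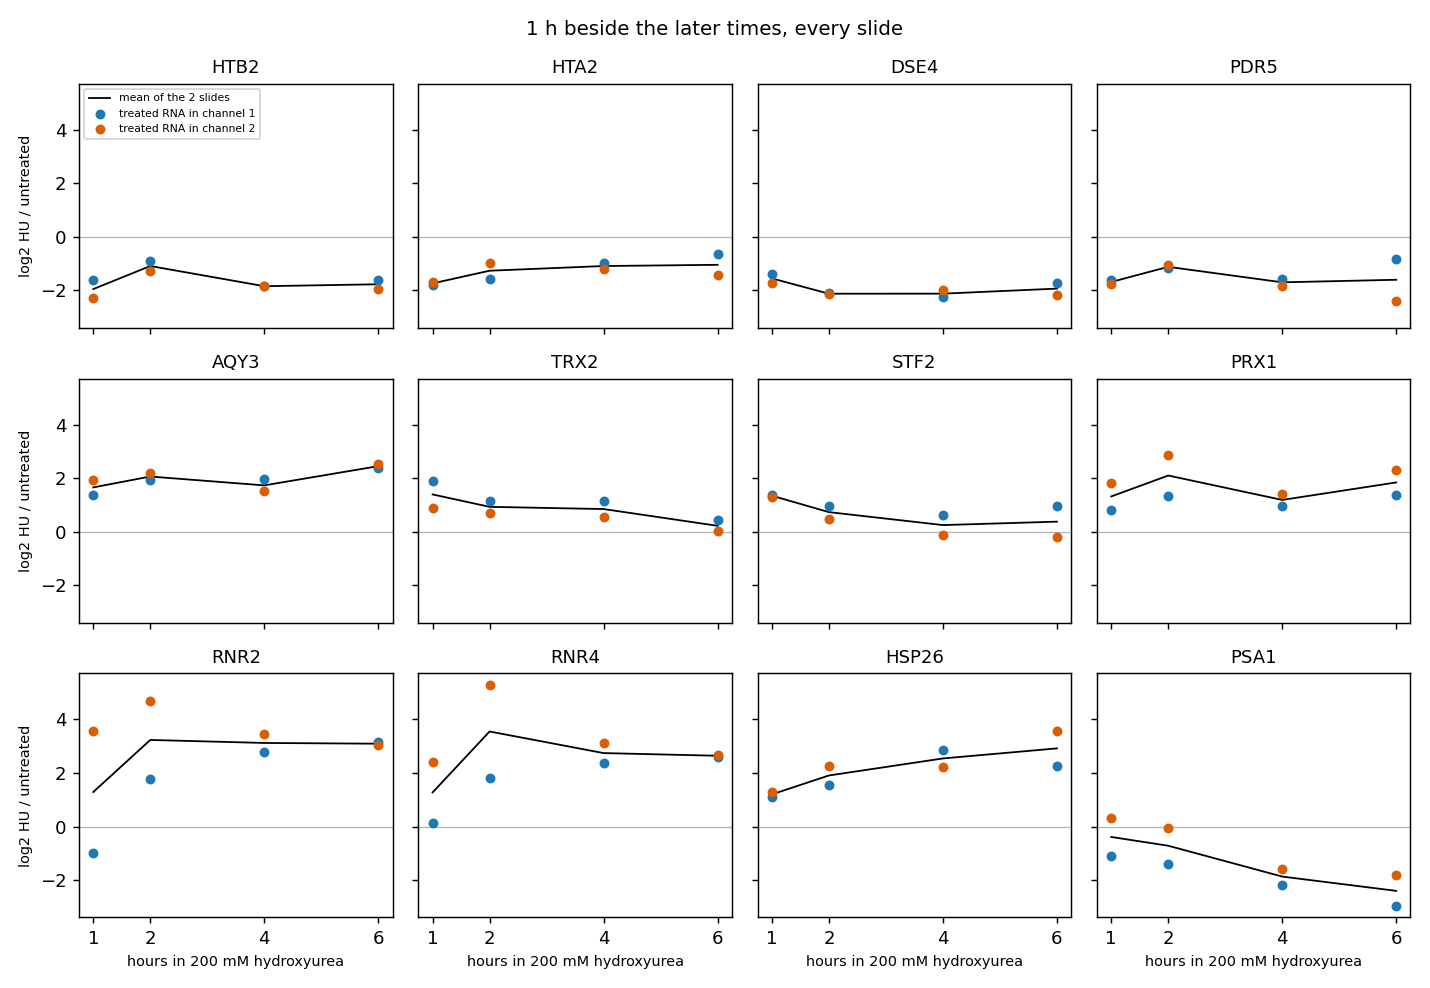
Log2 ratio of hydroxyurea over untreated (y axis) against hours in 200 mM hydroxyurea (x axis) for 12 genes, with a point for each slide and a line through the means of the 2 slides. Blue is the slide with treated RNA in channel 1, orange the slide with it in channel 2. Both slides of HTB2 and DSE4 lie below 0 and both of AQY3 above 0 at each time, whereas those of RNR2 at 1 h lie at -0.98 and 3.57.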

How the data were processed

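Total RNA was purified on columns and labelled by an indirect method, per the labels. Each deposited value is the log ratio of one channel over the other, in unstated base, read here as base 2. These log2 values, as the authors deposited them, were not centred; if the log is natural, the folds are larger. Scanner, background correction and the authors' normalization are not given in the sources used here, and reading medians ran from -1.03 to 0.45. Intensities were not used, so signal over background is unknown, and the number of slides limits the precision.

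Of 6912 spots, 3344 named 1 gene and gave 3127 genes. Spots of a gene were averaged (207 genes). Symbols of 3343 spots were matched to RefSeq names by gene number. Readings were turned to treated over untreated, centred on the median of spots naming 1 gene, and averaged per slide. All 8 slides entered 1 limma model (3.58.1, R 4.3.3) with a term per time and a term for the channel, leaving 3 residual beside 4.89 prior degrees of freedom. The p-values are two-sided, adjusted by Benjamini-Hochberg over all 3127 genes, and ± is a standard error. The scripts were tested on simulated data.

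The naming rule covered called genes, the 8 per direction largest on both slides and the 4 of each list with the smallest p. It also covered the 4 per direction differing most between slides and the ribonucleotide reductase, DUN1 and histone set. Not every gene that met this rule is named. List members outside this rule (RPL4B, HSP12, GRE1, PGM2, YGP1, RPS7A) were chosen after their values were seen. Members and lists were chosen with earlier results of these data known. A shared spot or sequence was not corrected for.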

Additional observations from a re-analysis of the deposited data

How the results depend on the processing

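For the genes called at 1 h (25), the count was 86 on values as deposited, 5 on faible and 47 on fort readings, 168 after quantile normalization, 110 with readings in random slide blocks, 40 after centring within array blocks (chosen after seeing the data), and 0 with no channel term (194 at an unadjusted p of 0.05) or with the 1 h slides only (160). Leaving out 1 slide gave 0 to 86. It was 0 without either 1 h slide, 86 without either 2 h slide and 4 (HTB2, HTA2, DSE4 and PDR5) without either 6 h slide, where the remaining slide of a time is assumed to vary like the others. A lone slide of a time is fitted exactly, so leaving out either slide takes that time out of the estimate of the spread. The median absolute difference between the slides of a time was 0.545 at 2 h, 0.305 at 4 h and 0.34 at 6 h. Whether this made the counts differ was not tested. On values as deposited limma gave every gene the same variance. A median of spots, only the genes with 1 spot, a filter on differing readings and robust variances gave 24 to 25 calls. These included 24 to 25 of the same genes. No named gene changed direction while called. For 1 h against later times (0), the count was 16 as deposited, 1 after quantile normalization and 1 with slide blocks, and 0 to 1 leaving out 1 slide. Agreement on both slides (143 genes) was 92 on faible and 236 on fort readings and 20 at a threshold of 1. It was 158 as deposited, but with 101 higher and 57 lower in place of 35 and 108. With the channel effect off (171) it was 109 on faible readings, and as deposited 160, with 105 higher and 55 lower in place of 47 and 124. Each ratio already pairs treated with untreated RNA of a slide. No paired analysis was possible because slides of different times carry no number in the labels that would match them. With 2 slides a median standard error of 0.18 limits what could be called.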

Other observations

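Spots without a gene name also held values that repeated on both 1 h slides. Of 3181 such spots, 21 lay at or above 0.5 (0.66%) and 78 at or below -0.5 (2.45%) on both, and 4 and 11 lay beyond 1. Of 387 spots that name several genes, 3 (0.775%) and 29 (7.49%) did so, against 35 (1.05%) and 115 (3.44%) of the 3344 spots naming 1 gene.

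The genes low on the slide with treated RNA in channel 1 and high on the other made up 4.96% of all genes, 50.0% of the 14 glycolysis and hexose uptake genes, 40.9% of the 22 amino acid synthesis genes, 27.8% of the 18 chaperone genes, 23.1% of the 26 proteasome genes and 18.5% of the 27 iron-dependent and iron-sulfur assembly genes. In the other lists of at least 10 genes they made up 0.0% to 11.8%. The same asymmetry stood at 2 h, with 249 genes one way and 23 the other, and not at 4 h (7 and 6) or 6 h (9 and 4).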
